A study of Mus musculus with 18 samples.

Results

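Abat, Bdh1, Ehhadh and Cpt1a encode enzymes that break down the neurotransmitter GABA, ketone bodies and fatty acids. They were taken by their gene symbols and make up 4 of the 40620 rows of the count table. The 4 genes were chosen by a rule that used measured values, namely their levels and their course over time in these libraries. Both are therefore given here as a description with no test. Tests of these genes are given only for the short hairpin constructs, while other genes are also tested between times. Their identifiers are ENSMUSG00000057880 (Abat), ENSMUSG00000046598 (Bdh1) and ENSMUSG00000022853 (Ehhadh), all on chromosome 16, and ENSMUSG00000024900 (Cpt1a) on chromosome 19.

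Cpt1a, carnitine palmitoyltransferase 1A, sits in the outer mitochondrial membrane and loads long-chain fatty acids onto carnitine, the step that controls their entry into mitochondria for beta-oxidation. Ehhadh is the peroxisomal bifunctional enzyme, which carries out the hydratase and dehydrogenase steps of beta-oxidation in peroxisomes, and Bdh1 is the mitochondrial enzyme that interconverts the ketone bodies beta-hydroxybutyrate and acetoacetate. Abat, GABA transaminase, removes the amino group of GABA in mitochondria so that its carbon can enter the tricarboxylic acid cycle. Cpt1a and Ehhadh are textbook targets of the nuclear receptor PPAR alpha in liver, and osteoblasts are known to use fatty acids beside glucose as fuel.

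The series measured RNA in MC3T3-E1, a line of mouse calvarial preosteoblasts, to ask what silencing of Rcor2, a corepressor of the CoREST family, does during osteoblast differentiation. All cells carried a lentiviral construct on the background that the labels call WT: the control shScramble, or 1 of 2 hairpins against Rcor2, shRcor2-18 and shRcor2-20. There were 2 samples of every construct at each of the times 0h, 24h and 7d, which gives 9 groups and 18 libraries, and the osteogenic medium described for all constructs held dexamethasone (10 nM), ascorbic acid (50 µg/ml) and beta-glycerophosphate (5 mM). The sample titles give 7d as the last time while the protocols name day 14 and day 21, and no label states whether the 2 samples of a group came from separate cultures, so the p-values reflect only how far these samples spread, which may be technical.

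Total counts per library were 2572026 to 9798498, and intervals on counts cover counting error only. The 3 libraries of sample 1 at 0h stood apart. Over 468 genes they correlated at 0.884 to 0.968 (Pearson's r of log2 values) with the other 15 libraries and at 0.982 to 0.997 with each other. The other 15 correlated with each other at 0.917 to 0.993, so these ranges overlapped. The 3 libraries had counts in 11942 to 14355 rows, against 16555 to 18277 in the other 15. The 3 libraries were left out of every comparison unless stated. In none of the 18 libraries was the most similar library the other sample of its own group, though it was always of the same time. Many rows of the table did not hold what their names say: of 431 genes of families used by every cell (ribosomal proteins, proteasome, respiratory chain and the like) on the other chromosomes, 85 (19.7%) reached a mean of 20 CPM (counts scaled to the size of the library). On chromosome 16, in contrast, all 21 such genes from Olfr161 to Mrps6 reached it, with 0 such genes beyond. On chromosome 19 all 9 from Ighmbp2 to Vps51 reached it. That stretch was ended before the first that did not (Cox8a, 4.74 CPM), so its count was fixed by the rule. Of the 10 such genes beyond Vps51, 4 reached 20 CPM, and the stretch holds 123 of the chromosome's 699 protein-coding rows. These stretches hold 722 protein-coding genes, called in-register genes here, and the 4 metabolic genes lie in them. The row named Rcor2 lies outside them, so it does not check the constructs: it stood at 195 CPM in the shScramble library at 0h and at 207 to 238 CPM in those at 24h and 7d, at 207 to 227 CPM with shRcor2-18 and at 210 to 268 CPM with shRcor2-20. Such stretches were sought on chromosomes 16 and 19 alone, those of the 4 genes, and other chromosomes were not examined for them. None of the 12 osteoblast markers listed (Runx2, Sp7, Alpl, Bglap and others) lies in these stretches, so the cell type was not checked.

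The genes beside each member bear on whether its row holds its own reads. Abat lies between Mettl22, a methyltransferase (mean 15.9 CPM over the 15 libraries), and Tmem186, a mitochondrial membrane protein (85.2 CPM). Tmem114, further out on the Mettl22 side, had 0 CPM, and Pmm2, a glycosylation enzyme beyond Tmem186, had 111 CPM. Cpt1a follows Ighmbp2 (103 CPM), a helicase, and the mitochondrial ribosomal protein gene Mrpl21 (137 CPM), and precedes Mtl5 (0.332 CPM) and the neuropeptide gene Gal (0.0132 CPM). Ehhadh stands between 2510009E07Rik (308 CPM) and the kinase gene Map3k13 (5.86 CPM), with Vps8 (78.9 CPM) and Tmem41a (35.1 CPM) beyond them. Bdh1 stands between the lipocalin gene Apod (182 CPM) and the scaffold gene Dlg1 (476 CPM), with Ppp1r2 (195 CPM) and Mfi2 (0.319 CPM) beyond them. Of these neighbours, Tmem114, Gal, Mtl5 and Mfi2 were at or near 0, Mettl22 and Map3k13 lay below 20 CPM, and the others ran from 35.1 to 476 CPM. The antisense gene Gm15743, which overlaps Bdh1, had 1 count in all 18 libraries, and the small nuclear RNA gene Gm24898, which overlaps Ehhadh, had 0.

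**Figure D1:**
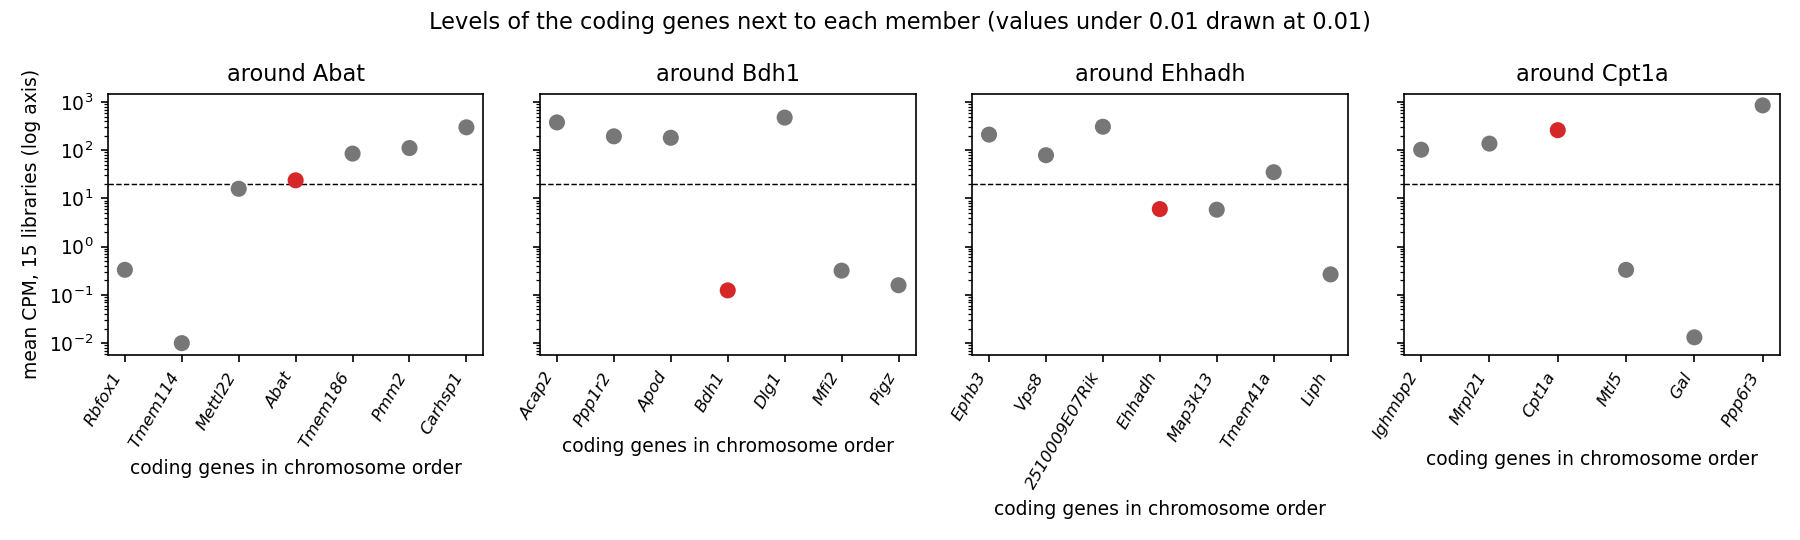
Mean CPM over the 15 libraries (log axis) of each member, in red, and up to 3 protein-coding genes on either side in chromosome order, in grey; the dashed line is at 20 CPM. Bdh1, at 0.124 CPM, lies beside genes of 182 and 476 CPM, while Cpt1a, at 261 CPM, lies beside Mrpl21 at 137 CPM.

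The promoters of the 2 textbook PPAR alpha targets are shown, since such receptors bind direct repeats of the half-site AGGTCA. The windows run from 250 bases before to 50 bases after the start of the gene, were taken from RefSeq on GRCm38.p6, and are printed in the direction of transcription with capitals for the half-site on either strand (AGGTCA or its reverse complement TGACCT). The Cpt1a window is chr19:3323051-3323350 on the plus strand, and the Ehhadh window is chr16:21787785-21788084 on the minus strand.
Cpt1a: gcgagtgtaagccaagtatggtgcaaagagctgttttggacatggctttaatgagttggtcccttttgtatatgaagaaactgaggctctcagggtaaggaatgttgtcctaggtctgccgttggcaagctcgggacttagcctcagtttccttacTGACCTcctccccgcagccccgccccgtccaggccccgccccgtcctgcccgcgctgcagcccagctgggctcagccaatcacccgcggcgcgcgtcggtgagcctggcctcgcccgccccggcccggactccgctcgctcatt
Ehhadh: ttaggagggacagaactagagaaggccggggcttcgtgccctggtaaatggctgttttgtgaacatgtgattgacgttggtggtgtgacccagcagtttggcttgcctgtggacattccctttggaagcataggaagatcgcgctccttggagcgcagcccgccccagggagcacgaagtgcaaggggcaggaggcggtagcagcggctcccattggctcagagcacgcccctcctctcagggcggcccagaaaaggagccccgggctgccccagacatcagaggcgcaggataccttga
The Cpt1a window holds 1 half-site, as the reverse complement, whose first base lies at -94 from the start. The Ehhadh window and both windows listed for Bdh1 hold none. Of 32851 promoter windows of the same length, 5340 (16.3%) hold the half-site. Dexamethasone is a ligand of the glucocorticoid receptor, and that receptor's half-site AGAACA (reverse complement TGTTCT) was found in none of these windows and in 6233 of the 32851 (18.97%). A match of these letters is a description of the window and no evidence of binding.

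Per kilobase of exon the 4 genes ranged widely. Over the 15 libraries, Cpt1a had 34.1 ± 13.5 CPM per kb (SD, n = 15), Abat 3.07 ± 2.44, Ehhadh 2.02 ± 0.544 and Bdh1 0.0319 ± 0.0458. Cpt1a was the highest in each library, from 21.7 to 66.0 CPM per kb, against at most 6.81 for Abat and 3.18 for Ehhadh, and Bdh1 never exceeded 0.133. Abat and Ehhadh overlapped on this scale, from 0.681 to 6.81 and from 1.27 to 3.18 CPM per kb.

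Abat was the member whose level differed most between times. At 0h the 3 libraries used had 5.99 CPM (shScramble), 10.0 CPM (shRcor2-18) and 7.99 CPM (shRcor2-20), on CPM scaled with the trimmed mean of M values. At 24h the 2 samples of each construct had 10.9 and 13.5 CPM with shScramble, 11.3 and 5.28 CPM with shRcor2-18, and 12.4 and 6.23 CPM with shRcor2-20. By 7d the values were 52.6 and 41.5 CPM, 52.8 and 44.5 CPM, and 45.6 and 36.3 CPM in the same order. Every 7d library was above every library of the other times, while 0h and 24h overlapped. The means were 8.01 ± 2.03 CPM (SD, n = 3), 9.94 ± 3.38 CPM (n = 6) and 45.6 ± 6.40 CPM (n = 6). From 24h to 7d Abat was 4.63-fold higher, a log2 difference of 2.21 ± 0.25 (SE), and per construct the log2 difference was 1.95 ± 0.43 for shScramble, 2.55 ± 0.44 for shRcor2-18 and 2.13 ± 0.44 for shRcor2-20. Against 0h the 7d level was 5.78-fold higher (log2 2.53 ± 0.34), and the difference from 0h to 24h, 0.32 ± 0.31, was about as large as its standard error. The GABA catabolic gene was thus low until 24h and high by 7d with all 3 constructs.

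**Figure D2:**
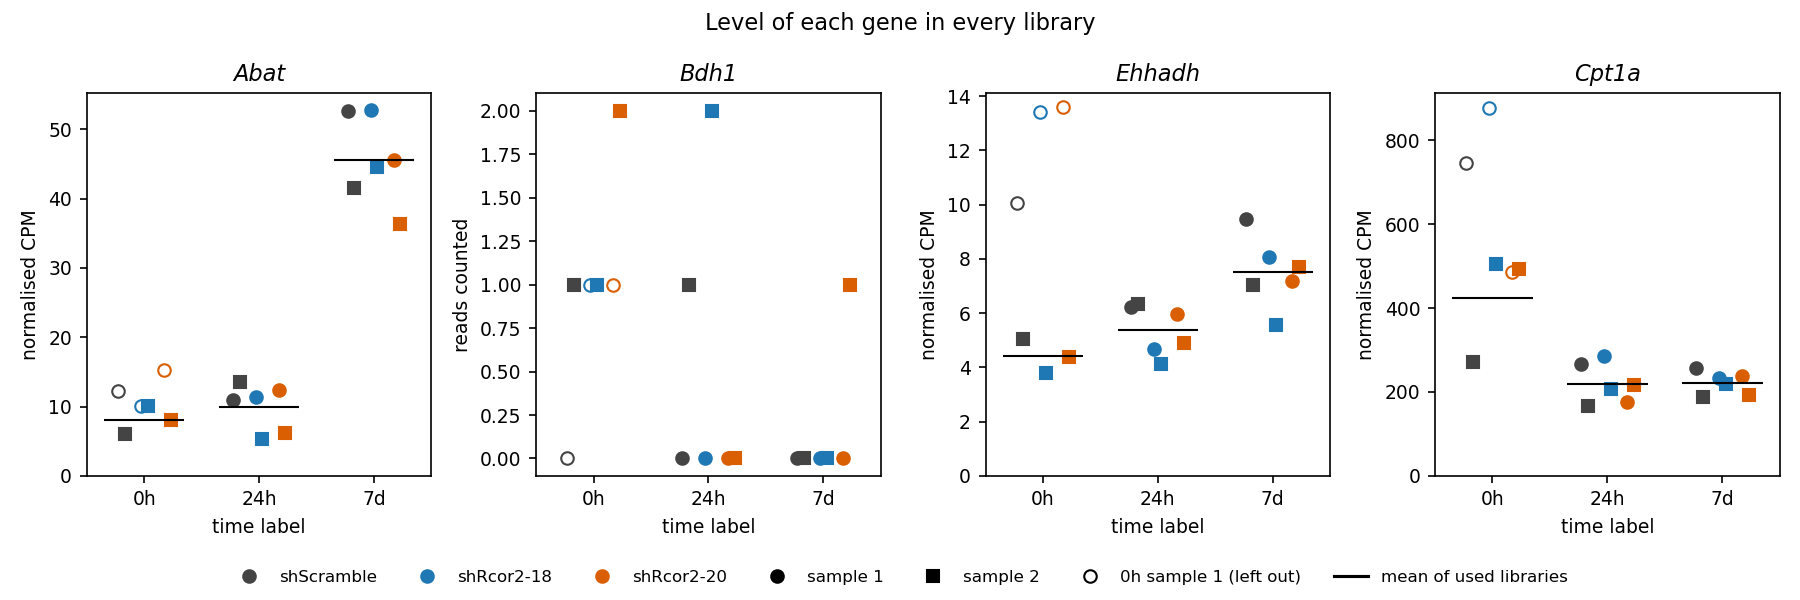
Level of each gene in every library by time, in normalised CPM (Abat, Ehhadh, Cpt1a) or reads counted (Bdh1); colours are constructs, circles sample 1, squares sample 2, open circles the 0h libraries left out (scaled over all 18 libraries), and lines the means of the libraries used. Abat at 7d sits between 36.3 and 52.8 CPM, above all libraries at 24h, and Cpt1a has its highest values at 0h.

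Ehhadh was read out at a low level, with 17 to 39 counts in each library used. At 0h it had 5.03, 3.80 and 4.38 CPM with shScramble, shRcor2-18 and shRcor2-20. At 24h the values were 6.24 and 6.34 CPM with shScramble, 4.69 and 4.13 CPM with shRcor2-18, and 5.96 and 4.90 CPM with shRcor2-20. The 7d libraries had 9.46 and 7.02 CPM, 8.07 and 5.56 CPM, and 7.19 and 7.71 CPM. All 7d libraries were above all 0h libraries, and 7d and 24h met in their ranges, where the shRcor2-18 library of sample 2 at 7d (5.56 CPM) lay below 3 of the 24h libraries. The means were 4.40 ± 0.617 CPM (SD, n = 3) at 0h, 5.38 ± 0.925 CPM (n = 6) at 24h and 7.50 ± 1.29 CPM (n = 6) at 7d. The 7d level was 1.71-fold that at 0h (log2 0.77 ± 0.28, SE) and 1.40-fold that at 24h (0.49 ± 0.22), and 24h differed from 0h by 0.28 ± 0.28. From 24h to 7d the log2 difference was 0.39 ± 0.38 with shScramble, 0.62 ± 0.39 with shRcor2-18 and 0.46 ± 0.38 with shRcor2-20, so the peroxisomal gene's difference was positive in each construct and less than 2 times its standard error there.

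Cpt1a went the other way and was highest at 0h. The shScramble library at 0h had 272 CPM, and those of shRcor2-18 and shRcor2-20 had 504 and 493 CPM. At 24h the samples had 266 and 166 CPM with shScramble, 286 and 207 CPM with shRcor2-18, and 176 and 217 CPM with shRcor2-20. At 7d they had 257 and 189 CPM, 233 and 218 CPM, and 237 and 193 CPM. All 7d libraries lay below all 0h libraries, and 24h overlapped with both, with 0h only through shRcor2-18 sample 1 at 24h (286 CPM) against shScramble at 0h (272 CPM). The means were 423 ± 131 CPM (SD, n = 3), 220 ± 47.8 CPM (n = 6) and 221 ± 26.6 CPM (n = 6). Cpt1a was 1.86-fold lower at 24h than at 0h (log2 -0.90 ± 0.18, SE) and 1.84-fold lower at 7d (-0.88 ± 0.18), and 7d and 24h differed by 0.02 ± 0.15. Per construct the log2 difference from 0h to 24h was -0.33 ± 0.32 with shScramble, -1.03 ± 0.32 with shRcor2-18 and -1.33 ± 0.32 with shRcor2-20. The drop in the transcript of the carnitine enzyme thus lay before 24h and was within about 1 standard error of 0 in the control construct, which has 1 library at 0h.

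Bdh1 was barely detected. It had 8 counts in the 15 libraries and 10 in all 18, with 0 in 9 of the 15 and at most 2 in any library. The pooled level was 0.123 CPM with an exact Poisson 95% interval of 0.0530 to 0.242 CPM. A count of 0 allows up to 0.489 to 0.856 CPM in a library, depending on its depth (3 counts). Of the 8 counts, 4 were in the 3 libraries at 0h, 3 in the 6 at 24h and 1 in the 6 at 7d. The row did not pass the filter on low counts and no comparison was made, so a difference in Bdh1 was not detectable at this depth.

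**Figure D3:**
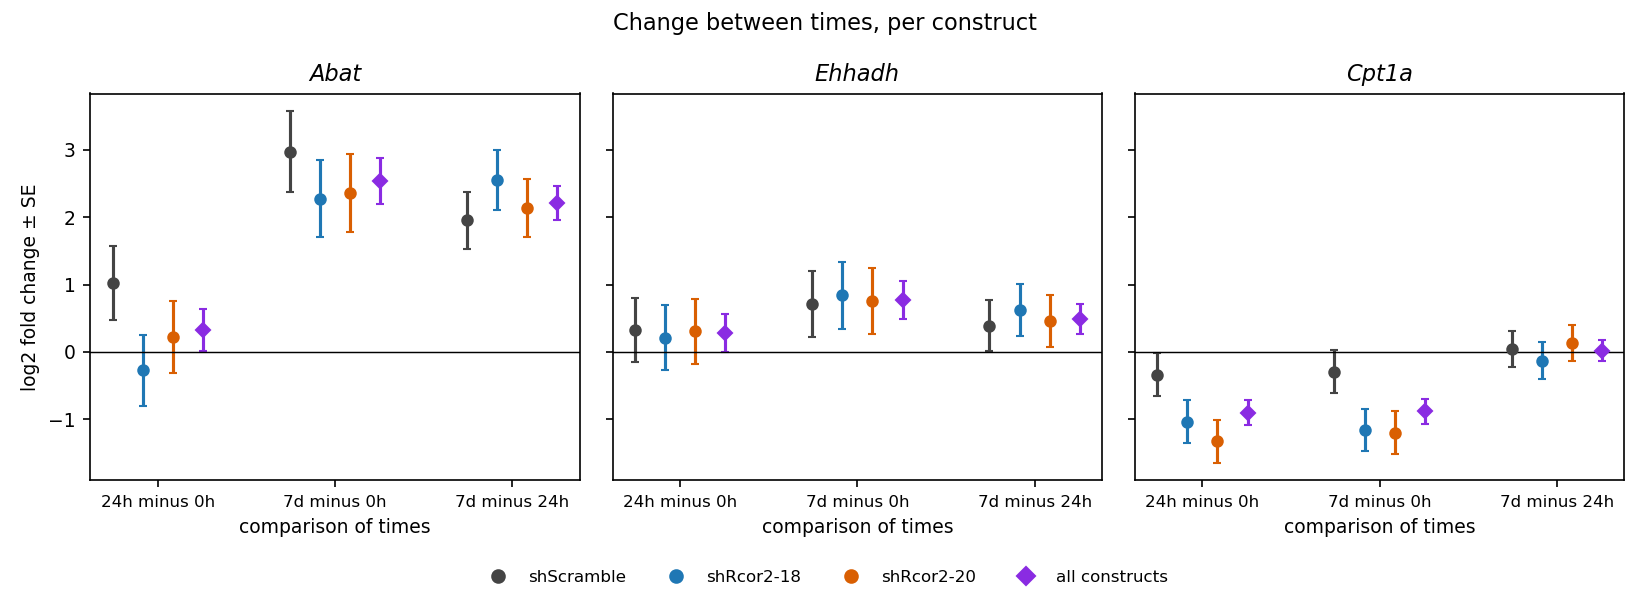
Log2 fold changes between times with their standard errors for each construct (circles) and averaged over the 3 constructs (diamonds). Abat is 1.95 to 2.55 higher at 7d than at 24h in each construct, and Cpt1a at 24h minus 0h is -0.33 with shScramble and -1.03 and -1.33 with the hairpins.

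The courses of the 3 measured genes can be set beside the rest of the table, with nothing read from their own counts since their courses were known when they were picked. The libraries of 7d and 24h did not overlap for 1 of the 3 genes (Abat), and for 5.01% of the 12930 rows tested and 12.5% of the 471 in-register genes tested. For 7d against 0h they did not overlap for any of the 3, and for 14.9% of rows and 30.4% of in-register genes. For 24h against 0h all 3 overlapped, and 7.77% of rows and 15.9% of in-register genes did not. By edgeR's quasi-likelihood test with Benjamini-Hochberg adjustment, 240 rows (1.86%) passed a threshold of 0.05 from 0h to 24h, 745 (5.76%) from 0h to 7d and 302 (2.34%) from 24h to 7d. With a replicate block for the sample number inside a construct these counts were 56, 432 and 169.

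The libraries left out would have changed the picture at 0h. With scaling over all 18 libraries, Abat had 12.2, 10.1 and 15.2 CPM in sample 1 of shScramble, shRcor2-18 and shRcor2-20 against 5.91, 9.95 and 7.87 CPM in sample 2. Ehhadh had 10.1, 13.4 and 13.6 CPM against 4.96, 3.76 and 4.32 CPM. Both genes were thus higher in each sample 1 library than in any sample 2 library, and for Ehhadh the sample 1 values also exceeded all 7d libraries. Cpt1a had 747, 876 and 487 CPM against 269, 499 and 486 CPM, so sample 1 was higher with shScramble and shRcor2-18 and nearly equal with shRcor2-20. With all 18 libraries, Abat remained higher at 7d than at 0h (log2 2.16 ± 0.31, SE), Ehhadh turned from 0.77 to -0.15 ± 0.41, and Cpt1a was lower by a larger step (-1.32 ± 0.26). From 0h to 24h the values with all 18 libraries were -0.07 ± 0.30 for Abat, -0.66 ± 0.41 for Ehhadh and -1.36 ± 0.26 for Cpt1a. The source of the difference between the samples at 0h was not tested.

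The hairpin comparison is the one the series was made for. The rule that picked the genes used their levels and course over time, though earlier results of these data were known. None of the 3 genes tested passed the threshold for the mean of both hairpins minus shScramble, over all times or at any time. In edgeR's quasi-likelihood test over all rows, 1 of 12930 rows (0.00773%) was called over all times, 20 (0.155%) at 0h, 2 (0.0155%) at 24h and 5 (0.0387%) at 7d. Against shares this low, 0 of 3 is close to the background. Among the 471 in-register genes edgeR called 0 in each of these 4 comparisons, and 25, 37, 3 and 7 had an unadjusted p under 0.05. Averaged over times the log2 difference of Abat was 0.01 ± 0.24 (SE; 95% interval -0.54 to 0.57; edgeR adjusted p = 1.00), that of Ehhadh -0.29 ± 0.22 (-0.80 to 0.22; adjusted p = 0.860) and that of Cpt1a 0.29 ± 0.16 (-0.06 to 0.65; adjusted p = 0.793). The intervals leave room for differences of about the size that Ehhadh shows between times.

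By time, the largest difference was that of Cpt1a at 0h, 0.87 ± 0.34 (95% interval 0.09 to 1.65; unadjusted p = 0.0324, edgeR adjusted p = 0.643), which rests on 1 shScramble library of 272 CPM against 504 and 493 CPM. With all 18 libraries it was 0.19 ± 0.38, where the sample 1 libraries had 747 CPM with shScramble and 876 and 487 CPM with the hairpins. At 24h and 7d the Cpt1a differences were 0.03 ± 0.23 and -0.02 ± 0.23. For Abat they were 0.58 ± 0.55 at 0h, -0.47 ± 0.36 at 24h and -0.08 ± 0.36 at 7d. For Ehhadh they were -0.30 ± 0.47, -0.36 ± 0.33 and -0.21 ± 0.33, with edgeR adjusted p of 0.951, 1.00 and 1.00. The sign turned in 1 alternative fit at 0h, to 0.23 with all 18 libraries. At 7d it turned in 1 as well, to 0.019 without shScramble sample 1 at 7d. In every alternative fit the Ehhadh difference was negative at 24h (-0.44 to -0.30) and over all times (-0.36 to -0.12), and none passed the threshold. Ehhadh with the hairpins was 4.13 to 5.96 CPM at 24h against 6.24 and 6.34 CPM with shScramble, so these libraries did not overlap. At 24h that held for 1 of the 3 genes and for 9.8% of all rows tested, and at 7d for 0 of the 3 and for 9.1% of rows.

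**Figure D4:**
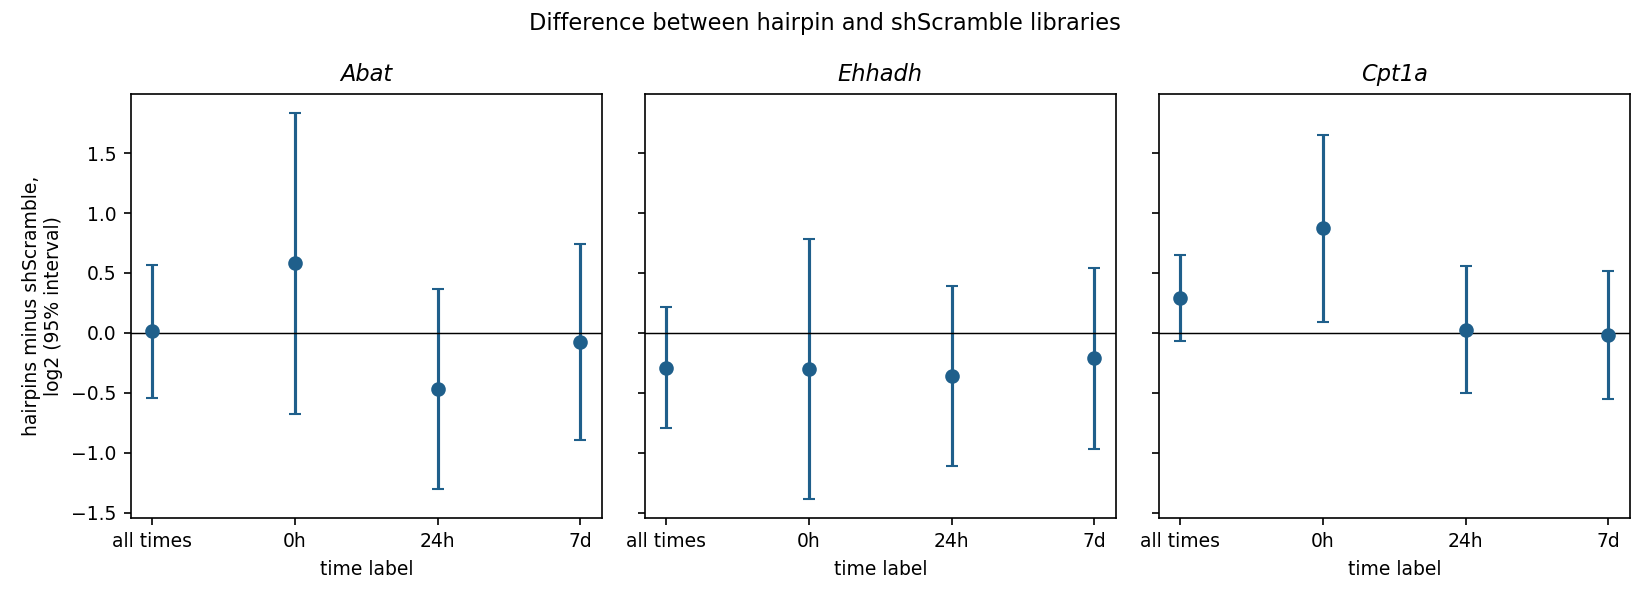
Mean of both hairpins minus shScramble on the log2 scale with 95% intervals, over all times and at each time. Of the 12 intervals drawn, that of Cpt1a at 0h (0.09 to 1.65) is the one that leaves out 0, before adjustment over all rows.

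The hairpins taken one by one gave the same result. Relative to shScramble, shRcor2-18 differed by 0.08 ± 0.28 for Abat, -0.40 ± 0.26 for Ehhadh and 0.37 ± 0.18 for Cpt1a (log2 ± SE over all times; edgeR adjusted p of 1.00, 0.913 and 0.872), where 0.101% of rows were called. For shRcor2-20 the differences were -0.06 ± 0.29, -0.18 ± 0.26 and 0.22 ± 0.18 (edgeR adjusted p of 1.00, 1.00 and 0.933; 0.0387% of rows called). The hairpins differed from each other by -0.14 ± 0.29, 0.21 ± 0.26 and -0.14 ± 0.18 (edgeR adjusted p of 1.00 for each; 0.0928% of rows called). The step from 24h to 7d was also tested for a difference between constructs: the hairpin difference at 7d minus that at 24h was 0.39 ± 0.51 for Abat, 0.15 ± 0.47 for Ehhadh and -0.04 ± 0.33 for Cpt1a (edgeR adjusted p of 1.00 for each; 0.0541% of rows called). In a comparison added after the values were seen, the hairpin difference at 24h minus that at 0h was -0.85 ± 0.41 for Cpt1a (95% interval -1.78 to 0.09; edgeR adjusted p = 0.856; 0.0928% of rows called) and -1.05 ± 0.66 for Abat (adjusted p = 0.928). So the smaller step of Cpt1a with shScramble from 0h to 24h did not pass the test of a difference between constructs.

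For Cpt1a and Abat at 24h, libraries of different constructs lay closer than the 2 samples of a group. At 24h, Cpt1a had 266 and 286 CPM in sample 1 of shScramble and shRcor2-18, 166 and 176 CPM in shScramble sample 2 and shRcor2-20 sample 1, and 207 and 217 CPM in sample 2 of both hairpins. Abat at 24h fell into the same pairs, with 10.9 and 11.3 CPM, 13.5 and 12.4 CPM, and 5.28 and 6.23 CPM. Ehhadh at 24h did not: the shScramble samples had 6.24 and 6.34 CPM, and shRcor2-18 sample 1 had 4.69 CPM. At 7d Cpt1a did not keep the second pair, with 189 CPM in shScramble sample 2 and 237 CPM in shRcor2-20 sample 1. Over the 468 genes, the first and the third of these pairs were each other's most similar libraries at 24h (r of 0.993 and 0.990) and also at 7d (0.988 and 0.986), and shScramble sample 2 was most similar to shRcor2-20 sample 1 at both times (0.983 and 0.980). The spread within a group, on which each test of the hairpins rests, therefore holds a difference that crosses the constructs, and its source was not tested.

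Few other genes of the same pathways could be read. Register was sought on chromosomes 16 and 19 alone, so genes of other chromosomes are not in register by definition. Of lists of 17 genes of GABA metabolism, 13 of ketone body metabolism, 36 of peroxisomal oxidation and peroxisome assembly and 22 PPAR alpha targets, none beside the members was in register. Of 40 genes of the carnitine shuttle and mitochondrial beta-oxidation, 1 other was: Slc25a45, a mitochondrial carrier of the carnitine carrier family, had means of 68.3, 83.2 and 116 CPM at 0h, 24h and 7d, and its log2 difference from 0h to 7d was 0.90 ± 0.26 (edgeR adjusted p = 0.0876). Of 34 other breakdown and carboxylation enzymes, 4 were in register (Prodh, Pcx, Acy3 and Aldh3b1) and 0 passed edgeR's test between any times, where 2.76% of in-register genes did from 0h to 24h, 11.9% from 0h to 7d and 4.67% from 24h to 7d. So 0 of 4 is close to the background. Their median log2 difference from 24h to 7d was 0.23, from -0.38 for Pcx, pyruvate carboxylase, to 1.06 ± 0.43 for Prodh, proline dehydrogenase (edgeR adjusted p = 0.246). The median was 0.03 over the 471 in-register genes tested and -0.02 over all 12930 rows. Of 22 genes of mitochondrial respiration, the mitochondrial ribosome and other mitochondrial roles (such as Tomm70a and Opa1), 15 were in register. Of these, 0 passed between any times against the same shares, and their median from 24h to 7d was -0.02. The mitochondrial genes stayed between -0.28 and 0.22 there. Nothing is read from the larger difference of Abat (2.21), whose course was known when it was picked.

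Of the pathway lists, lipid synthesis held a call. Of 22, 4 were in register, and 1 of the 4 passed, where 4.67% of the in-register genes tested (2.34% of all rows) did from 24h to 7d and 11.9% (5.76%) from 0h to 7d. With 4 genes, nothing is read from this count about the list. Tm7sf2, a sterol reductase of cholesterol synthesis, fell: it had means of 85.9, 87.0 and 49.8 CPM at 0h, 24h and 7d, a log2 difference from 24h to 7d of -0.79 ± 0.15 (edgeR adjusted p = 0.0372) and from 0h of -0.77 ± 0.17 (adjusted p = 0.0401). With the replicate block within constructs the edgeR adjusted p were 0.0798 and 0.0998, and leaving out single libraries ended the call in 10 of 15 and 9 of 12 cases. Slc25a1, the mitochondrial citrate carrier, had -0.42 ± 0.14 from 24h to 7d (edgeR adjusted p = 0.178), while Chka, choline kinase, and Pcyt1a, an enzyme of phosphatidylcholine synthesis, had 0.03 ± 0.17 and -0.08 ± 0.09 (adjusted p of 0.987 and 0.746).

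**Figure D5:**
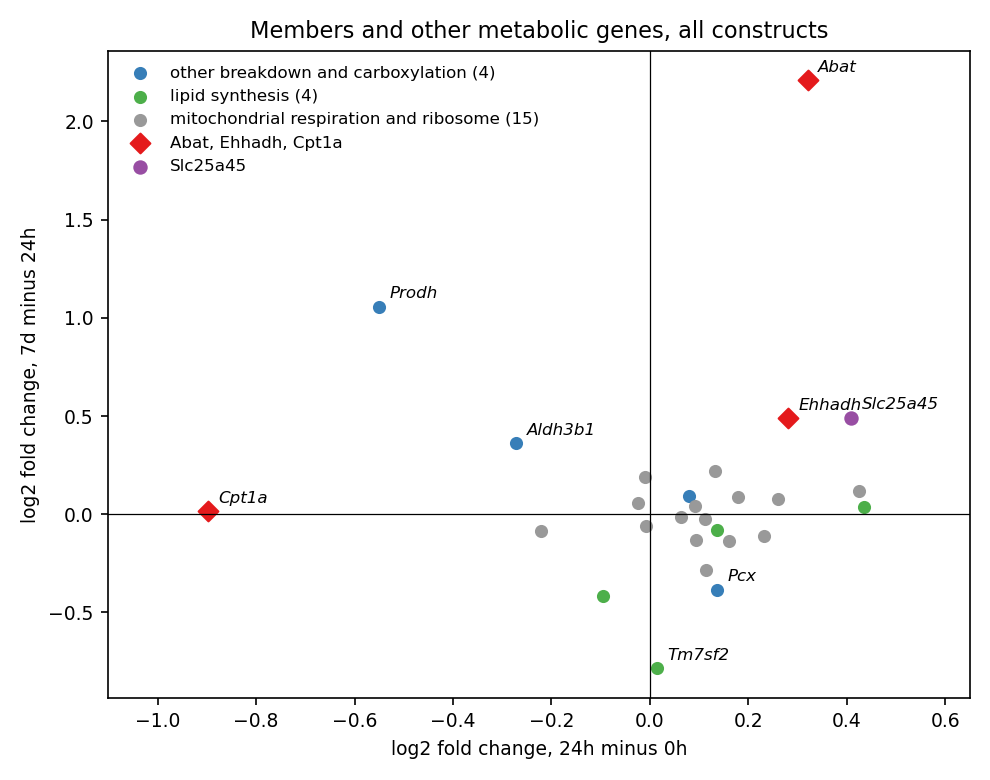
Log2 change from 24h to 7d against that from 0h to 24h for 3 members (diamonds) and the in-register genes of the pathway lists, averaged over constructs. Abat stands at 2.21 on the vertical axis, Cpt1a at -0.90 on the horizontal axis, and the 15 mitochondrial genes lie near the origin.

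Markers of other cell types were read where in register. Adipoq, the adipocyte hormone, was at 0 to 0.668 CPM in each library used. Of the hepatocyte markers Ahsg, Hrg and Kng1 were at or near 0, with means of at most 0.188 CPM, and Fetub had 21.1 CPM. Of the macrophage markers Cd86 was at 0 and Cd80 at 188 CPM. Of the muscle markers 2 could be read, and they went different ways. Actn3, an actinin of fast muscle fibres, had means of 6.09, 80.4 and 125 CPM at 0h, 24h and 7d and rose (log2 4.67 ± 0.35 from 0h to 7d, edgeR adjusted p = 0.000460). Myh11, the smooth muscle myosin heavy chain, had 7.46, 4.80 and 4.23 CPM (log2 -0.78 ± 0.31, edgeR adjusted p = 0.204). Their sum was 6.95 to 17.2 CPM at 0h, 57.9 to 105 CPM at 24h and 110 to 152 CPM at 7d. From 0h to 7d 1 of these 2 genes passed, where 11.9% of in-register genes tested (5.76% of all rows) did. The lists were chosen with earlier results of these data known, so nothing is read from this count. The neuronal markers Gap43, Robo2 and Grik1 summed to 16.5 to 23.5 CPM at 0h, 13.9 to 29.8 CPM at 24h and 23.7 to 187 CPM at 7d, nearly all of it Robo2 (84.5 CPM at 7d), while Gap43 and Grik1 had means of 1.01 and 0.186 CPM. Their part in the level of Abat at 7d was not tested, and in bulk RNA fewer cells with a transcript and less of it per cell cannot be told apart.

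Genes whose course was most like that of each member were ranked by Pearson's r of log2 CPM over the 15 libraries, among the 451 in-register genes whose log2 CPM averaged 1 or more. The libraries share times, so r mostly follows the course over time and is given as a description. For Abat the closest were Btla, a lymphocyte inhibitory receptor (0.92), Tmem44 (0.92) and Crybg3 (0.91). Btla had means of 2.66, 7.61 and 44.0 CPM at 0h, 24h and 7d, beside 8.01, 9.94 and 45.6 CPM for Abat, so the levels were close at 7d while Btla was the lower at 0h. For Ehhadh they were Btla (0.91), the membrane glycoprotein gene Cd200 (0.84) and Zfp263 (0.84). For Cpt1a they were Bcl6, a transcriptional repressor (0.91), Tmem151a (0.82) and Rela, a subunit of NF-kappaB (0.81). Bcl6 had means of 172, 103 and 111 CPM at the 3 times, beside 423, 220 and 221 CPM for Cpt1a, so both had their highest mean at 0h. Between the members, r was 0.82 for Abat with Ehhadh, -0.29 for Abat with Cpt1a and -0.51 for Cpt1a with Ehhadh.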

How the data were processed

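RNA-seq of 18 libraries (3 constructs, 3 times, 2 samples per group) was analysed from raw read counts per gene that the authors deposited as 1 table. Per the submitters' processing notes, FastQC, TopHat2 2.0.9, mm9, DESeq and DESeq2 were named. How reads were counted, with which annotation and strand setting, is not given in the sources used here. Groups and sample numbers come from the sample titles.

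The members, gene lists and tests were chosen with earlier results of these data known. Of 40620 identifiers 39547 (97.4%) were found in GENCODE vM21 (GRCm38), used for gene order and exon lengths. In-register genes were sought on chromosomes 16 and 19 alone, those of the members. They are protein-coding genes from the chromosome's start to the last member of an unbroken run of ubiquitous families with at least 20 CPM. This rule was chosen after the data were seen. The in-register genes held 11.7% of counts.

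Tests used edgeR 4.0.16 (R 4.3.3; filterByExpr with a minimum count of 10, TMM, robust glmQLFit, glmQLFTest) on all rows of 15 libraries with 9 group means and 6 residual degrees of freedom, with Benjamini-Hochberg adjustment over 12930 rows and a threshold of 0.05. A group with 1 library is assumed to vary like the others. Standard errors are the log2 fold change over the square root of F. On simulated counts for 7d against 24h over 11678 rows, the model recovered 91% of rows changed 2-fold and 100% changed 4-fold. Of its calls 2.05% were false. The simulation gave all rows the same spread, with no difference between samples or constructs, and changed only rows of higher count. It checks that the code runs as meant and does not measure power or false calls in these libraries. Alternatives were all 18 libraries, other scaling, no filter, DESeq2 1.42.0, in-register genes alone, the times 24h and 7d alone, replicate blocks and leaving out single libraries. Deviations of same-numbered samples of a construct correlated between 24h and 7d at 0.44, 0.44 and 0.29 over the 471 in-register genes tested (0.03 to 0.06 over all rows). The number within a construct was therefore taken as a pairing in the replicate block within constructs. The main tests have no block and ignore this pairing, which comes from the values and is not stated in the labels. Named genes were the members, in-register genes of the lists, 2 coding genes on either side of each member, and the 3 genes most correlated with it. A gene of the lists is not reported here and was left out of its list. Promoters came from RefSeq, which had entries for Bdh1, Ehhadh and Cpt1a.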

Additional observations from a re-analysis of the deposited data

Results flagged for a closer look

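The 3 libraries of sample 1 at 0h, which were left out of the comparisons except where all 18 libraries are named, gave higher values of Abat and Ehhadh than every sample 2 library at 0h. Abat had 12.2 CPM in the shScramble library, 10.1 CPM in the shRcor2-18 library and 15.2 CPM in the shRcor2-20 library, against at most 9.95 CPM in sample 2. Ehhadh had 10.1, 13.4 and 13.6 CPM in the same order, against at most 4.96 CPM. The shRcor2-18 value of Abat, 10.1 CPM, rests on 67 counts and exceeds its sample 2 by less than counting error. No library at 24h or 7d lay far from the others of its time by Dixon's criterion in the 6 groups examined, and no change of the hairpin difference with time passed the test.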

How the results depend on the processing

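No member passed the threshold in a hairpin comparison under any of the 9 alternatives or when any of the 15 libraries was left out, and the lowest adjusted p, 0.294, was that of Cpt1a at 0h. The higher level of Abat at 7d and the lower level of Cpt1a at 7d than at 0h kept their direction under each. Depth limited Bdh1, which had at most 2 counts in a library. The counts of rows called, and the member differences near 0, moved as follows, and the cause was not tested except where fewer rows or libraries entered.

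Counts of rows called are listed for 24h minus 0h, 7d minus 0h and 7d minus 24h. DESeq2 called 582, 1427 and 1100 rows. In-register genes tested alone gave 26, 116 and 83 of 471, where the main fit called 13, 56 and 22 of the same genes. The share of in-register genes called thus depends on whether the other rows are included. The replicate block within constructs, which pairs libraries by sample number, gave 56, 432 and 169. All 18 libraries gave 38 for 7d minus 24h. For the hairpins over all times, at 0h, 24h and 7d, for shRcor2-18, shRcor2-20 and the hairpins against each other, and for the change of the hairpin difference from 24h to 7d and from 0h to 24h, DESeq2 called 109, 153, 30, 30, 73, 71, 46, 35 and 88 rows. All 18 libraries and in-register genes alone gave 0 in each of these 9, and the replicate block within constructs 0, 0, 1, 0, 0, 0, 0, 1 and 1. With no filter the counts were 20 for the hairpins over all times, 41 at 0h, 4 at 24h, 20 for shRcor2-18, 18 for shRcor2-20, 25 between the hairpins and 27 for the change from 0h to 24h. Scaling by library size alone gave 8 for the hairpins over all times. The replicate block by number over all constructs gave 12 at 0h, 7 for shRcor2-18, 0 for shRcor2-20 and 6 between the hairpins.

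With all 18 libraries the log2 differences from 0h to 24h were -0.070 (Abat), -0.66 (Ehhadh) and -1.36 (Cpt1a), and from 0h to 7d -0.15 (Ehhadh) and -1.32 (Cpt1a). For the hairpins minus shScramble they were -0.10 over all times (Abat) and 0.23 at 0h (Ehhadh). They were -0.12 for shRcor2-18 (Abat), -0.087 for shRcor2-20 (Cpt1a) and 0.041 between the hairpins (Abat). Scaling by library size alone gave -0.031 for Cpt1a from 24h to 7d and -0.027 for Abat with the hairpins over all times. With no filter Abat had -0.0058 over all times and Cpt1a -0.011 at 24h. In the replicate block within constructs Cpt1a had 0.0012 with the hairpins at 7d and Abat 0.024 with shRcor2-20, and in the block over all constructs Abat had -0.016 over all times. The blocks reversed no other difference of a member.

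Leaving out 1 library at a time gave 150 to 231 rows for 24h minus 0h and 120 to 307 for 7d minus 24h, the lowest without shScramble 24h sample 1 and shRcor2-20 24h sample 1. The hairpin counts ran from 0 to 10 over all times, 9 to 24 at 0h, 2 to 12 at 24h, 5 to 15 at 7d, 0 to 8 for shRcor2-20, 4 to 20 between the hairpins, and 4 to 11 and 7 to 17 for the changes from 24h to 7d and from 0h to 24h. Cpt1a ran from -0.083 to 0.15 from 24h to 7d, from -0.28 to 0.41 and -0.22 to 0.22 for the hairpins at 24h and 7d, and from -0.42 to 0.27 for their change between these times. The ends were set by shScramble sample 1 or 2 at 24h or 7d. Ehhadh ran from -0.41 to 0.019 for the hairpins at 7d and from -0.048 to 0.38 for their change from 24h, both set by the shScramble samples at 7d. Abat ran from -0.097 to 0.087 over all times, -0.24 to 0.10 at 7d, -0.14 to 0.23 for shRcor2-18, -0.25 to 0.080 for shRcor2-20 and -0.33 to 0.079 between the hairpins. Comparisons with 0h could not be fitted without the only 0h library of a construct used.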
